A study of Bos taurus with 8 samples.

Results

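The facilitative sugar transporters of the SLC2A family, also named GLUT proteins, were followed in bovine granulosa cells at 2 oxygen levels. The 9 members were the listed SLC2A genes that the array annotation pairs with a transcript cluster, which is the set of probes that reports 1 transcript. They were *SLC2A1*, *SLC2A3*, *SLC2A4*, *SLC2A5*, *SLC2A6*, *SLC2A8*, *SLC2A10*, *SLC2A12* and *SLC2A13*, with 10 clusters out of 24415 in all, since *SLC2A5* has 2. The choice of these members was made with earlier results of these data known, so the shares of them that changed are a description. RNA came from 4 samples at normal oxygen (NOL, 21% O2) and 4 samples at low oxygen (LOL, 1% O2), with 1 array each. Cells of both groups were taken from abattoir ovaries, frozen, thawed and grown without serum on collagen in medium with FSH, IGF-1, insulin and androstenedione, and no untreated group without these hormones was measured. The oxygen level was changed on day 6 and the cells were harvested on day 8, after 48 h. Whether the 4 samples per oxygen level were separate cultures or animals is not given in the sources used here, and each p-value therefore reflects sample-to-sample spread that could be purely technical.

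Most SLC2A proteins let sugars cross a membrane down their concentration gradient, without using energy, and each has its own substrates, affinity and place in the cell. Of the members, the glucose carriers *SLC2A1* (GLUT1), *SLC2A3* (GLUT3) and *SLC2A4* (GLUT4) belong to class I, which also has *SLC2A2*, and the fructose carrier *SLC2A5* (GLUT5) belongs to class II, which also has *SLC2A9* and *SLC2A11*. Class III has *SLC2A6*, *SLC2A8*, *SLC2A10*, *SLC2A12* and *SLC2A13*, several of which work inside the cell or carry other molecules. *SLC2A1* and *SLC2A3* are well known target genes of hypoxia-inducible factors in many mammalian cells. Granulosa cells line the ovarian follicle, which has no blood vessels inside its basement membrane, and they supply the oocyte with products of glycolysis.

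All values are log2 signals made by the authors with the robust multichip average method (RMA), and a difference of 1 is a 2-fold change. A cluster passed the test where the limma p, adjusted over all 24415 clusters, was under 0.05, and it was called where the fold was also over 2. These thresholds passed 41.0% and called 4.87% of all clusters, and the median difference over all clusters was 0.06. The medians of the arrays lay between 4.06 and 4.18, and the values used here hold no measure of background. The 25th percentile of the signals was 2.36 to 2.38 on the NOL arrays and 2.42 to 2.52 on the LOL arrays. Dim clusters were thus in general slightly higher at LOL. The 75th percentile was 6.10 to 6.13 on the NOL arrays and 5.97 to 6.04 on the LOL arrays, so the upper part of the signals was slightly lower at LOL.

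The transporters moved in opposite directions at low oxygen. *SLC2A3* and *SLC2A1* rose 7.58-fold and 4.13-fold, *SLC2A10* fell 4.73-fold, and *SLC2A4*, *SLC2A6*, *SLC2A8* and *SLC2A13* changed by less than 2-fold. Of the 9 members, 4 were higher (*SLC2A1*, *SLC2A3*, *SLC2A4* and *SLC2A13*) and 3 were lower (*SLC2A6*, *SLC2A8* and *SLC2A10*). The other 2, *SLC2A5* and *SLC2A12*, did not pass. That makes 77.8% past the adjusted p, beside 41.0% of all clusters, with 20.5% in each direction. In a separate fit of only the 12623 clusters with a mean signal of at least 4, adjusted among themselves, 69.0% passed. *SLC2A5* and *SLC2A12* are the members under that level, and in that fit too 4 members were higher and 3 lower. Called members were 2 higher, beside 2.22% of all clusters, and 1 lower, beside 2.65%. Together they were 33.3% of the members, where 4.87% of all clusters were called. In the separate fit at a mean signal of at least 4, 8.48% of the clusters were called. The family genes *SLC2A2*, *SLC2A9* and *SLC2A11* are also on the array but not among the members, and none was called, so 3 of the 12 measured SLC2A genes (25%) were called. In 7 of the 9 members the LOL and NOL arrays had no overlap, as in 39.4% of all clusters.

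**Figure D1:**
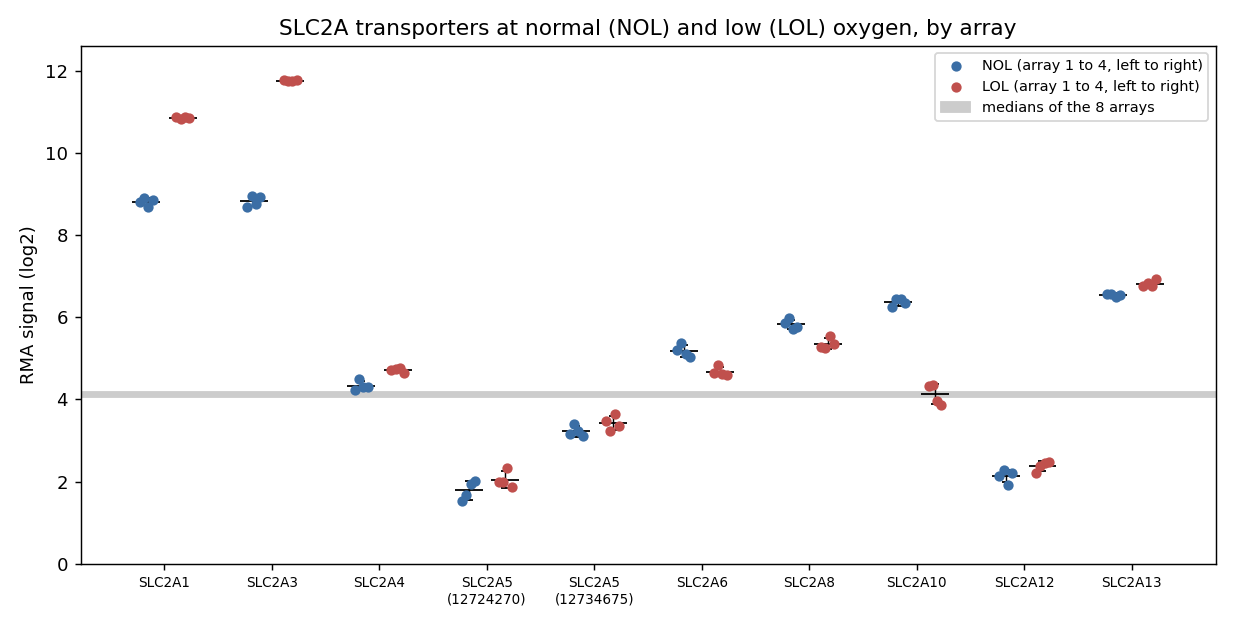
Log2 RMA signal of each SLC2A transcript cluster on each array, with blue points for the 4 NOL arrays and red points for the 4 LOL arrays. Black lines are group means with SD, and the grey band spans the medians of the 8 arrays (4.06 to 4.18). *SLC2A3* and *SLC2A1* start near 8.8 together and separate at LOL, while *SLC2A10* drops to the band.

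*SLC2A3*, a carrier with high affinity for glucose that is best known from neurons, had the largest change of the family. Its log2 signals in transcript cluster 12864151 were 8.69, 8.96, 8.75 and 8.93 in NOL 1 to 4 and 11.76, 11.75, 11.74 and 11.77 in LOL 1 to 4. Every LOL array lay far above every NOL array. The group means were 8.83 ± 0.13 (SD, n = 4) and 11.76 ± 0.013 (SD, n = 4), a rise of 2.92 (SE 0.073, limma adjusted p = 6.9e-09), or 7.58-fold with a 95% confidence interval of 6.77 to 8.49. Only 23 clusters on the array rose more. On the linear scale the signal went from 457 ± 41.9 to 3456 ± 30.9. At LOL the cluster ranked 9 to 11 by signal among the 24415 clusters, and at NOL it ranked 747 to 985. The LOL arrays were much closer to each other than the NOL arrays. Over the 52 clusters with a LOL mean between 11 and 12 the median SD was 0.036 and the 10th percentile 0.0174, so the LOL spread of *SLC2A3* was small also for its signal. Over the 1049 clusters with a NOL mean between 8 and 9 the median SD was 0.071 and the 90th percentile 0.137, and the NOL spread of *SLC2A3* was near the latter.

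*SLC2A1*, the carrier that serves basal glucose uptake in most cells, gave 8.81, 8.89, 8.69 and 8.84 in NOL 1 to 4 and 10.87, 10.83, 10.86 and 10.85 in LOL 1 to 4 (cluster 12836031). The groups were again far apart, with NOL 3 the lowest array. The NOL mean was 8.81 ± 0.085 and the LOL mean 10.85 ± 0.017 (SD, n = 4 each). The rise was 2.05 (SE 0.061, limma adjusted p = 1.7e-08), or 4.13-fold with a 95% confidence interval of 3.75 to 4.54, and 82 clusters rose more. The linear signal went from 449 ± 26.0 to 1849 ± 21.8, and the rank by signal went from between 792 and 991 at NOL to between 69 and 72 at LOL.

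*SLC2A4*, the insulin-regulated carrier of muscle and fat, had a dim signal and rose little. Its signals were 4.24, 4.50, 4.30 and 4.30 in NOL 1 to 4 and 4.72, 4.73, 4.76 and 4.65 in LOL 1 to 4 (cluster 12761101). Each LOL array exceeded each NOL array, though the gap between NOL 2 and LOL 4 was small. The difference was 0.38 (SE 0.070, limma adjusted p = 0.00157), or 1.30-fold, from 4.34 ± 0.11 to 4.72 ± 0.047 (SD, n = 4 each). The fold stayed under the threshold. Both group means were close to the medians of the arrays, and the part of background in the signal was not tested.

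The 3 class I members were then set against each other within each array, to give the amount by which their changes differed. *SLC2A3* minus *SLC2A1* was -0.12, 0.07, 0.06 and 0.09 in NOL 1 to 4 and 0.89, 0.92, 0.88 and 0.92 in LOL 1 to 4. *SLC2A3* thus rose by 0.88 more than *SLC2A1* on the log2 scale (SE 0.050, exact permutation test, two-sided, p = 0.0286, higher in 4 of 4 LOL arrays). The changes of *SLC2A3* and *SLC2A1* exceeded that of *SLC2A4* by 2.54 (SE 0.053) and 1.67 (SE 0.054), each with p = 0.0286 in the exact permutation test. This is the smallest p that 4 against 4 arrays allow, and it was 0.0286 as well after adjustment over the 3 pairs. The changes given above were already far apart, so these p-values are a description and no separate support. At NOL the 2 leading carriers gave overlapping signals, and at LOL they did not overlap. Probes differ in how brightly they report a transcript, so a within-array difference shows unequal change of signal and not which transcript was more abundant. How far background in the dim *SLC2A4* signal entered its 2 differences was not tested.

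**Figure D2:**
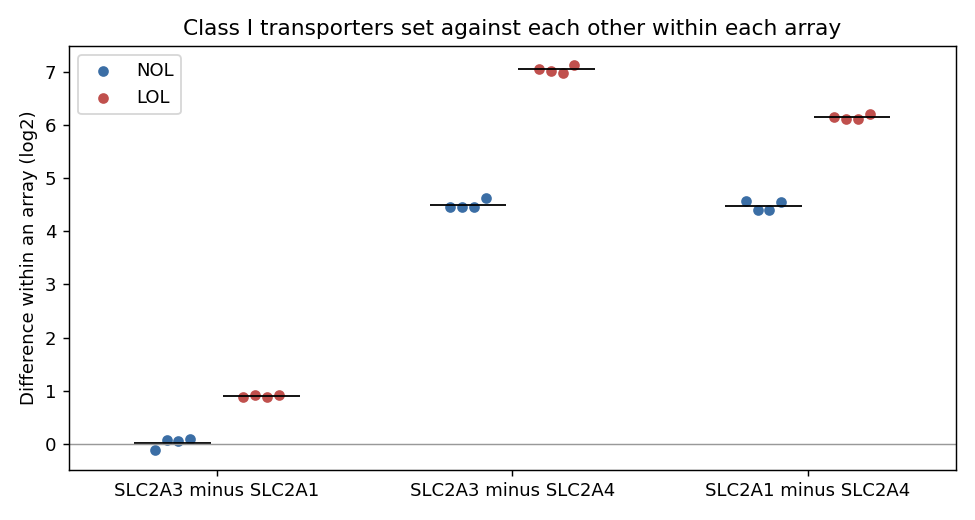
Difference of the log2 signals of 2 class I members within each array, with blue points for NOL, red points for LOL and black lines for the means. *SLC2A3* minus *SLC2A1* moves from about 0 (mean 0.025) at NOL to 0.90 at LOL, and the other pairs move further in the same direction.

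The fructose carrier *SLC2A5* was dim in both of its clusters. Cluster 12734675 gave 3.16, 3.40, 3.22 and 3.11 in NOL 1 to 4 and 3.47, 3.22, 3.64 and 3.36 in LOL 1 to 4. The groups overlapped, and the difference of 0.20 did not pass (95% confidence interval -0.023 to 0.42, limma adjusted p = 0.138). Over the other settings in which it was tested, it ran from 0.092 with quantile normalization to 0.27 without LOL 2, and it passed in none. Cluster 12724270 gave 1.52 to 2.01 at NOL and 1.87 to 2.33 at LOL, with a difference of 0.27 (95% confidence interval -0.022 to 0.55, limma adjusted p = 0.128). Both clusters lay below the median of every array, and the part of background in these signals was not tested.

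*SLC2A10* was the member that fell most. In humans its loss causes arterial tortuosity syndrome, and its protein has been described as a carrier of dehydroascorbic acid, the oxidized form of vitamin C, in membranes inside the cell. Signals in cluster 12715265 were 6.25, 6.44, 6.45 and 6.35 in NOL 1 to 4 and 4.33, 4.35, 3.97 and 3.87 in LOL 1 to 4. All LOL arrays lay below all NOL arrays, and LOL 3 and LOL 4 lay lower than LOL 1 and LOL 2. The mean went from 6.37 ± 0.093 (SD, n = 4) to 4.13 ± 0.25 (SD, n = 4). It fell by 2.24 (SE 0.12, limma adjusted p = 3.6e-07), which is 4.73-fold with a 95% confidence interval of 3.96 to 5.66, and 14 clusters of the array fell more. The LOL mean lies at the medians of the arrays, and the part of background in it was not tested. The linear signal was 83.0 ± 5.28 at NOL and 17.7 ± 2.98 at LOL.

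The class III carriers *SLC2A6* and *SLC2A8* fell slightly. *SLC2A8* is held inside the cell by a sorting signal, and *SLC2A6* is known as a lysosomal carrier of mouse macrophages. *SLC2A6* gave 5.21, 5.36, 5.11 and 5.02 in NOL 1 to 4 and 4.64, 4.84, 4.62 and 4.60 in LOL 1 to 4 (cluster 12705188). *SLC2A8* gave 5.85, 5.97, 5.72 and 5.75 in NOL 1 to 4 and 5.27, 5.26, 5.54 and 5.35 in LOL 1 to 4 (cluster 12698678). Neither gene had overlapping groups, and LOL 2 was the highest LOL array in *SLC2A6*, whereas LOL 3 was the highest in *SLC2A8*. *SLC2A6* fell by 0.50 (SE 0.088, limma adjusted p = 0.00119) and *SLC2A8* fell by 0.47 (SE 0.084, limma adjusted p = 0.00140), or 1.41-fold and 1.38-fold.

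*SLC2A13*, the proton-coupled carrier of myo-inositol that does not take up glucose, rose slightly, from a signal above the medians of the arrays. It gave 6.56, 6.57, 6.48 and 6.55 in NOL 1 to 4 and 6.75, 6.82, 6.75 and 6.92 in LOL 1 to 4 (cluster 12862219). The groups did not overlap, and LOL 4 was the highest array. The rise was 0.27 (SE 0.062, limma adjusted p = 0.00579), or 1.21-fold. *SLC2A12*, a relative of *SLC2A4* that responds to insulin in human cell lines, was dim, at 2.14, 2.27, 1.92 and 2.20 in NOL 1 to 4 and 2.20, 2.39, 2.44 and 2.48 in LOL 1 to 4 (cluster 12899697). LOL 1 lay within the range of the NOL arrays. Its difference was 0.25 (95% confidence interval 0.039 to 0.45, limma adjusted p = 0.0578), and without NOL 2 or without LOL 1 it passed, at 0.29 and 0.30. With quantile normalization it was 0.16.

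**Figure D3:**
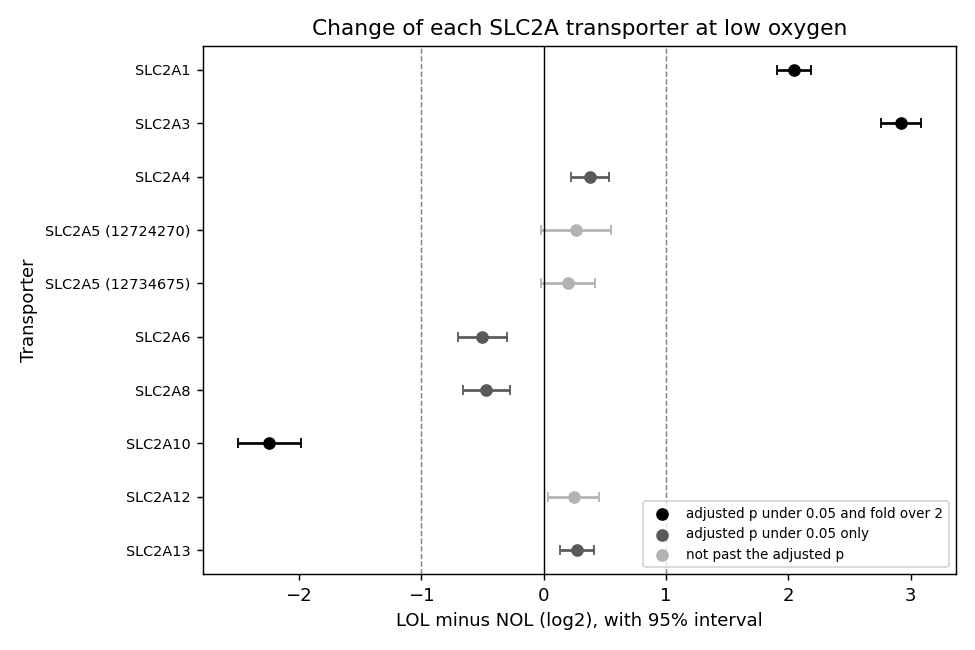
Log2 difference, LOL minus NOL, of each SLC2A cluster with its 95% confidence interval from limma, in black where called, dark grey where only the adjusted p passed and light grey otherwise, with dashed lines at 2-fold. *SLC2A3* (2.92), *SLC2A1* (2.05) and *SLC2A10* (-2.24) lie beyond the lines, and the other 7 clusters lie within them.

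The order of the array signals changed with oxygen. At NOL it ran from *SLC2A3* and *SLC2A1* over *SLC2A13*, *SLC2A10*, *SLC2A8*, *SLC2A6*, *SLC2A4* and *SLC2A5* to *SLC2A12*, and only *SLC2A3* and *SLC2A1* overlapped with their neighbour. At LOL *SLC2A10* moved from the fourth place to the seventh, below *SLC2A4* and *SLC2A6*, which overlapped (4.72 and 4.68), and no other neighbours overlapped. *SLC2A13*, the third in both groups, was 2.27 below *SLC2A1* at NOL and 4.04 below it at LOL. RMA signals are not given per length of transcript and each cluster has its own probes, so this order is one of signals and not of transcript numbers.

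The genes whose course over the 8 arrays was most like that of the changed carriers were found by the root mean square distance between log2 signals, each minus its own NOL mean. Closest to *SLC2A1* were *HMOX1*, which encodes heme oxygenase (distance 0.048), *AGPAT5*, an acyltransferase of phospholipid synthesis (0.072), and *SLC5A8*, a sodium-coupled monocarboxylate carrier (0.081). They rose 4.27-fold, 4.01-fold and 4.32-fold. *PPP1R3B*, which brings protein phosphatase 1 to glycogen (0.078), *ERRFI1*, an inhibitor of the EGF receptor (0.086), and *LOC100174924* (0.11) lay nearest to *SLC2A3*, with rises of 2.87, 2.95 and 2.96. Nearest to *SLC2A10* were *ARHGAP11A* (0.16), the fatty acid elongase *ELOVL6* (0.18) and the spermidine synthase *SRM* (0.19). They fell by 2.21, 2.14 and 2.07. The distances for *SLC2A10* were larger than those of the carriers that rose, whose LOL arrays had a smaller spread. Since these genes were chosen for likeness, their changes are a description.

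In 8 lists of genes around sugar transport, 27 of 98 measured genes rose, 30 fell and 41 did not pass. Of all clusters 41.0% passed, and 69.0% in the separate fit of clusters with a mean signal of at least 4. The counts in the lists are thus a description. Among 14 other measured sugar transporters, none was called, 5 rose, 1 fell and 8 did not pass, with a median difference of 0.21. Of the sodium-coupled SLC5A carriers, *SLC5A1*, *SLC5A2*, *SLC5A4* and *SLC5A9* did not pass, with differences between -0.11 and 0.17, and *SLC5A10* rose by 0.38 with overlapping groups. *SLC50A1*, a carrier of the SWEET family, rose from 6.83 to 7.21 without overlap (limma adjusted p = 0.000475), the smallest p of the genes that rose in this list, and *SLC37A2* rose by 0.26 with overlapping groups. *SLC2A2*, the low-affinity carrier of liver, rose from 1.42 to 1.69 (limma adjusted p = 0.0173), below the medians of the arrays and with overlapping groups. *SLC2A11* rose by 0.44 (limma adjusted p = 0.0498) with overlapping groups, the urate carrier *SLC2A9* was 4.73 in both groups (difference 0.0025, limma adjusted p = 0.984), and *SLC45A3* had a difference of 0.32 (limma adjusted p = 0.122). The glucose-6-phosphate carrier of the endoplasmic reticulum, *SLC37A4*, fell by 0.58 (limma adjusted p = 0.000153).

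Hexokinases trap glucose that has entered the cell. Of 9 measured genes of glucose phosphorylation and release, 3 rose, 3 fell and 3 did not pass, with a median difference of 0.16. *HK2*, the hexokinase that responds to hormones and oxygen, was 7.63, 7.63, 7.57 and 7.76 in NOL 1 to 4 and 9.55, 9.48, 9.46 and 9.39 in LOL 1 to 4. It rose 3.54-fold (difference 1.82, SE 0.065). *HK1* rose only 1.31-fold in the brighter of its 2 clusters (difference 0.39, limma adjusted p = 0.00132), and the other cluster rose by 0.54. *HK3* and *HKDC1* were dim and did not pass, with differences of 0.16 and 0.22.

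A list of 26 measured genes held regulators of carrier movement to and from the cell surface, together with *MEF2A*, *MEF2D* and *SLC2A4RG*, which act on the *SLC2A4* gene. Of these 26 genes, 7 rose, 8 fell and 11 did not pass, with a median difference of -0.14. *TXNIP*, which promotes removal of GLUT1 from the surface in human cells, was 6.42, 7.12, 8.11 and 8.43 in NOL 1 to 4 and 3.94, 4.04, 4.18 and 4.17 in LOL 1 to 4. It fell 10.8-fold (SE 0.37 on the log2 scale), and the NOL arrays spread over a far wider range than in any SLC2A member. The related alpha-arrestin *ARRDC3* rose 3.45-fold, while *ARRDC4*, another, had a difference of -0.20 that did not pass (limma adjusted p = 0.559). The NOL arrays of *ARRDC4* also spread widely, at 5.96, 6.38, 7.04 and 7.24 in NOL 1 to 4. *MEF2A*, a transcription factor that acts on the *SLC2A4* gene in muscle, rose 2.09-fold. *TBC1D4*, which holds back GLUT4 vesicles until insulin acts, fell 2.06-fold, and it is named here because it completes the 4 called genes of the list. *RAB8A* and *RAB14*, the brightest genes that did not pass, had differences of -0.20 and 0.075.

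Of 16 insulin and AKT signaling genes, 7 fell, 3 rose and 6 did not pass, with a median difference of -0.11. *PIK3R1*, the regulatory subunit of PI3 kinase, fell 2.39-fold, while *TRIP10*, an adaptor linked to GLUT4 movement, and *PRKAA2*, a catalytic subunit of AMP kinase, rose 2.54-fold and 2.18-fold. A second, dimmer cluster of *TRIP10* rose by 0.91. *PDPK1* and *INPPL1* had differences of -0.058 and -0.16 and did not pass. In lactate and pyruvate transport, 4 of 9 genes rose, 2 fell and 3 did not pass, with a median difference of 0.13. The lactate exporter *SLC16A3* rose 2.89-fold, with LOL arrays between 8.51 and 8.54 against 6.80 to 7.13 at NOL, whereas its chaperone *BSG* had a difference of 0.0050 (limma adjusted p = 0.955) at 10.51 in both groups. *SLC16A8* was dim, with a difference of 0.13 that did not pass.

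Of 9 genes of fructose and polyol handling, 5 fell, 2 rose and 2 did not pass, with a median difference of -0.38. *GFPT2*, an enzyme of hexosamine synthesis, fell 2.67-fold, and *MPI*, which interconverts mannose and fructose phosphates, rose 4.01-fold. The fructose enzymes *KHK* and *TKFC* had differences of -0.12 and -0.21 and did not pass. In inositol uptake and synthesis, the setting of *SLC2A13*, 2 of 8 genes rose, 2 fell and 4 did not pass, with a median difference of 0.10. *CDIPT*, which makes phosphatidylinositol, fell 1.66-fold and the inositol phosphatase *IMPA1* rose 1.35-fold, with *ISYNA1* at -0.093 and *IMPA2* at 0.11 not past. In vitamin C transport and recycling, the setting of *SLC2A10*, 1 of 7 genes rose, 2 fell and 4 did not pass, with a median difference of -0.040. The sodium-coupled vitamin C carrier *SLC23A2* fell 1.58-fold, *SLC23A1* rose by 0.35 at a dim signal, and *CYB5R3* and *GSTO1*, at 0.058 and -0.040, did not pass.

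**Figure D4:**
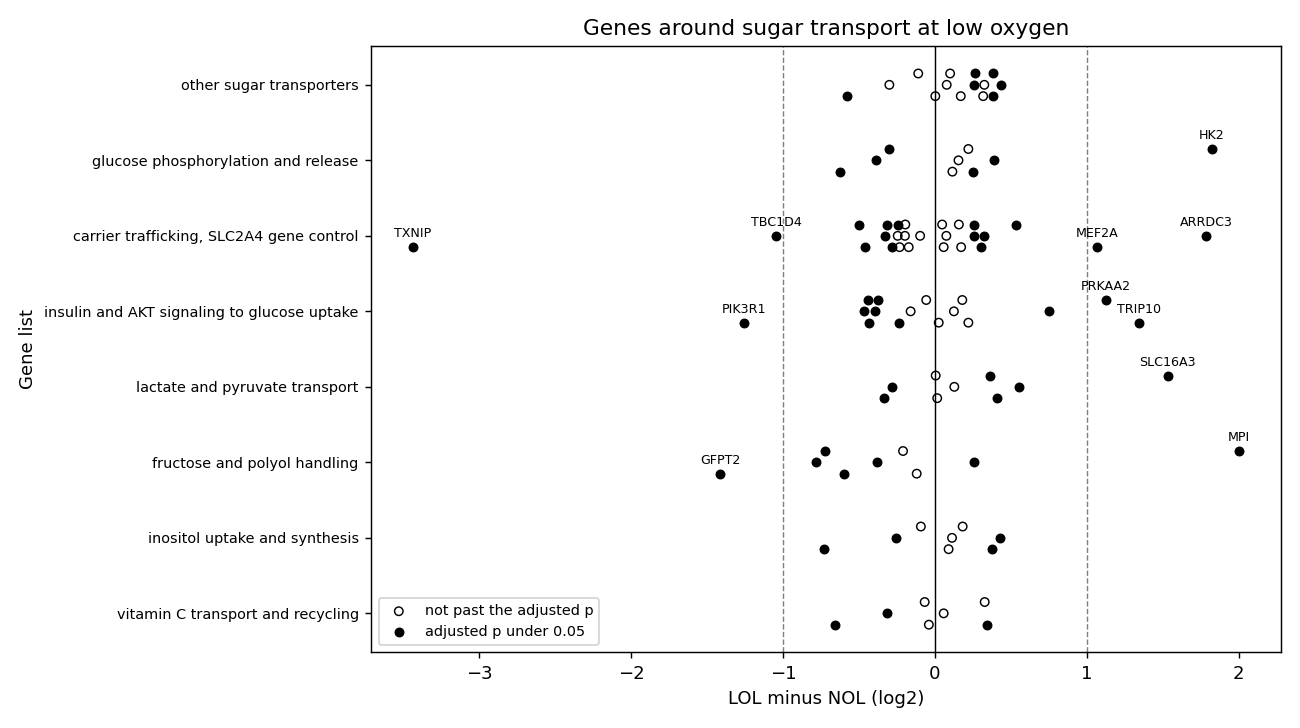
Log2 difference, LOL minus NOL, of every measured gene of 8 lists around sugar transport, with filled points past the adjusted p and dashed lines at 2-fold. The 11 called genes of 98 are named, 7 of them higher and 4 lower, from *TXNIP* at -3.44 to *MPI*, which rose 4.01-fold. Of all clusters 4.87% were called, and 8.48% in a separate fit of only the clusters with a mean signal of at least 4.

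The cells carried granulosa cell markers in both groups, at a lower level at LOL. Of 8 such markers 6 fell, none rose and *NR5A2* and *GATA4* did not pass, and their linear signals summed to between 5557 and 5724 on the NOL arrays and between 2708 and 3093 on the LOL arrays. In such bulk RNA, fewer cells of a type and less RNA per cell cannot be told apart. All 3 measured smooth muscle markers rose, with sums of 55.6 to 72.4 at NOL and 183 to 197 at LOL. Of 4 genes listed as theca markers, *INSL3* rose 2.05-fold (7.44 to 8.48), and *LHCGR*, which granulosa cells can also express, fell 1.77-fold. *CYP17A1*, at 3.38 and 3.35, and *TCF21* did not pass. The sums of these 4 genes were 188 to 242 at NOL and 382 to 400 at LOL, most of it from *INSL3*, with linear means of 175 and 356. Red cells and leukocytes carry *SLC2A1* or *SLC2A3*, and fat and muscle carry *SLC2A4*. The erythroid markers were all dim (6 of 6 under 4 in both groups), *EPB42* and *GATA1* rose by 0.34 and 0.49, and they summed to between 39.6 and 43.5 at NOL and between 47.8 and 52.5 at LOL. Leukocyte markers summed to 73.6 to 81.3 at NOL and 82.9 to 98.6 at LOL, higher on every LOL array. Of 6 leukocyte markers, *CD68*, with both means above 4, rose by 0.31 and *CSF1R* by 0.36. The defining *PTPRC* was at 1.91 and 1.87 and did not pass. The median difference over all clusters was 0.06, and the part of a general shift of dim clusters in the marker rises was not tested. Of 5 endothelial markers *TEK* rose by 0.42 and 4 were under 4 in both groups, with sums of 42.9 to 44.6 and 43.3 to 51.9. Of 5 striated muscle markers *MYOD1* and *ACTN3* rose by 0.26 and 0.36 and 4 were under 4 in both groups, with sums of 45.5 to 49.6 and 52.9 to 59.0. None of the 4 adipocyte markers passed in limma (*LEP* had an unadjusted p = 0.0220), all lay under 4, and their sums were 25.3 to 27.2 and 25.5 to 27.0. The part of a shift in cell types in the change of the carriers was not tested.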

How the data were processed

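Total RNA of 8 samples was hybridised to Affymetrix Bovine Gene 1.0 ST arrays, with 1 array for each. RMA, run by the authors, produced the log2 values; it removes background, normalizes arrays to each other and summarises probes, and its version is not given in the sources used here. No further normalization or filter was applied. The labels gave each sample's oxygen level and so its group. Genes were named from the array annotation, which gives 1 name to 18550 clusters, several to 595 and none to 5270. For a gene with several clusters, the one with the highest mean signal stands for it.

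LOL and NOL were compared over all clusters with limma 3.58.1 in R 4.3.3 (lmFit, eBayes, two-sided), with Benjamini-Hochberg adjustment. The script was tested on simulated data. Class I members were compared by exact permutation tests. The named genes were all members, up to 3 called genes per list with the largest change, up to 2 that did not pass with the highest signal, *TXNIP*, *HK1* and *HK2*, for lists without called genes up to 2 past the test, and 3 nearest profiles for each of *SLC2A1*, *SLC2A3* and *SLC2A10*. Genes given outside this rule, such as *SLC2A2*, *SLC50A1*, *SLC37A2*, *ARRDC4*, the SLC5A carriers and marker genes, were chosen after their values were seen. The members and lists were chosen with earlier results of these data known. The alternatives were quantile normalization, median centring, an unmoderated test, limma with trend, a filter at a mean of 4, the mean of a gene's clusters, the replicate number as a block and leaving out each array. Arrays have no sequencing depth, and their number limits the precision. Sequences and genome positions of the members were not used here.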

Additional observations from a re-analysis of the deposited data

Results flagged for a closer look

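In the 20 groups of 4 arrays formed by the 10 SLC2A clusters, 1 array lay apart from the other arrays of its group by Dixon's test. In *SLC2A6*, LOL 2 had a log2 signal of 4.84, and the other LOL arrays reached 4.60 to 4.64. Chance gives such a gap in about 1 of 20 groups, and without LOL 2 *SLC2A6* was still lower at LOL, by 0.555 in place of 0.50.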

How the results depend on the processing

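The counts of higher (4) and lower (3) members and of called members (2 higher, 1 lower) were the same under all other settings, except that 5 members were higher without NOL 2 or without LOL 1, when *SLC2A12* passed. The log2 difference of *SLC2A12* was 0.17 to 0.30 over the fits that leave out 1 array. All members kept their direction in every setting in which they were tested; *SLC2A5* and *SLC2A12* were not tested under the filter at a mean signal of 4. *SLC2A3* lay between 2.86 and 2.97, *SLC2A1* between 1.98 and 2.07 and *SLC2A10* between -2.32 and -2.16. *SLC2A13* was at 0.21 under median centring (limma adjusted p = 0.0368). With 1 array left out, the smallest exact permutation p is 0.0571, so none of the pair tests could pass. *SLC2A3* minus *SLC2A1* was then 0.83 to 0.90, *SLC2A3* minus *SLC2A4* 2.52 to 2.59 and *SLC2A1* minus *SLC2A4* 1.64 to 1.70. Whether equal replicate numbers mark paired samples is not given in the sources used here. The deviations of same-numbered arrays correlated at -0.027 to 0.11, and 3 of 8 arrays correlated best with their own number. With 4 arrays per group, such correlations cannot settle whether the samples were paired. With the number as a block, 1190 clusters were called in place of 1189, and the member counts were 4 higher and 3 lower. Dim signals limit *SLC2A5* and *SLC2A12*, whose group means lie under 4.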
